A study of Mus musculus with 9 samples.

Results

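Oncofetal genes are active in the embryo, fall silent in most adult tissues and return in many tumours. The 10 genes described here were chosen by symbol: *Lin28a*, *Lin28b*, *Igf2bp1*, *Igf2bp2*, *Igf2bp3*, *Hmga1*, *Hmga2*, *Igf2*, *H19* and *Dis3l2*. All 10 were listed among the 24341 genes counted in each sample. The cells were MEFs, fibroblasts grown from mouse embryos, and their poly(A)-selected RNA was sequenced in 3 samples of WT cells, 3 of *Sirt6-/-* and 3 of *Atm-/-*. The sample labels give the strain C57BL/6 and medium with serum for all 9 samples, and they name no further treatment, age or passage. The study compared the knockout cells with WT in work on the DNA damage kinase Atm and the deacetylase Sirt6, mainly with respect to glucose metabolism.

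The labels limit the genotypes as models. The notes on cell origin list P53-/- and Atm-/-P53-/- mice beside wildtype and Sirt6-/- animals, and the study's methods describe immortalised *Atm-/-; p53-/-* and *Sirt6-/-* MEFs from separate laboratories. In the counts, *Trp53* had 806, 946 and 928 reads in the libraries labelled *Atm-/-*, against 7108, 7102 and 6563 in WT and 9081 to 9218 in *Sirt6-/-*. The loss of *Atm*, the p53 background and the origin of the line therefore cannot be told apart. For *Sirt6-/-*, the loss of *Sirt6* and the origin of the line cannot be told apart either. *Sirt6* itself was nearly lost from its knockout, at 4, 5 and 7 reads where WT had 487, 402 and 472. *Atm* went against its label: the libraries labelled *Atm-/-* had 3768, 3564 and 3443 *Atm* reads, more than the 1536, 1617 and 1627 of WT. A count per gene does not show which exons the reads come from. These libraries are called by their label below.

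Totals ran from 32187040 to 33837949 reads per sample, so 3 reads correspond to 0.0887 to 0.0932 CPM (counts scaled to the library total). WT replicate 2 stood apart from the other WT samples, with 337 genes more than 1.5-fold from the mean of the other two, against 179 to 219 in each other sample, and the *Hmga* results, where it was the highest WT sample, are given with and without it. Of 12 fibroblast markers, 11, 11 and 10 reached a mean of 1 CPM in WT, in the libraries labelled *Atm-/-* and in *Sirt6-/-*, with summed levels of 6320 to 6850, 2740 to 2800 and 4840 to 4870 RPKM (the read count scaled by transcript length and library size).

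Lin28a and Lin28b are RNA-binding proteins that block the maturation of let-7, a microRNA family of differentiated cells. They bind the let-7 precursor and recruit terminal uridylyl transferases, and Dis3l2 is the exonuclease that degrades the uridylated precursor. Mature let-7 in turn represses mRNAs with matching sites, among them those of *Lin28a*, *Lin28b*, *Hmga2* and *Igf2bp1*, so that these genes and let-7 form a loop. The Igf2bp proteins bind and stabilise mRNAs, including that of *Igf2*, the fetal insulin-like growth factor. Hmga1 and Hmga2 are small chromatin proteins that bind AT-rich DNA. *H19* is a noncoding RNA that lies next to *Igf2* in an imprinted domain, and Sirt6 is known to restrain *Lin28b* in pancreatic cancer cells.

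The members of the let-7 family are shown because their shared seed defines the sites in the genes described here. The mature RefSeq sequences (GRCm38.p6) of 4 of them follow, 5′ to 3′, with bases 2 to 8, the seed, in capitals.
mmu-let-7a-5p: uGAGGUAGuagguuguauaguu
mmu-let-7d-5p: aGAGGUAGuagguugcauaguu
mmu-let-7g-5p: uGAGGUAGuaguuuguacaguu
mmu-miR-98-5p: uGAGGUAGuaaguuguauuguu
The other 5 mature forms, let-7b, let-7c, let-7e, let-7f and let-7i, have the same seed.

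The letters complementary to this seed, CTACCTC, were searched on the transcribed strand in the longest annotated 3′ UTR of each gene (GENCODE M21, GRCm38), and over the whole transcript of *H19*. *Lin28b*, *Igf2bp1* and *Hmga2* held 4 matches each, *Lin28a* held 2, and *Igf2bp2*, *Igf2bp3* and *Hmga1* held 1. *Igf2*, *H19* and *Dis3l2* held 0. Among all 21020 genes searched, 9.02% held a match and 0.0571% held 4 or more. A longer 3′ UTR holds more matches by length alone: of the 2245 within 20% of the 3014 bases of *Hmga2*, 15.5% held one. The share was 33.7% around the 6337 bases of *Igf2bp1*, 24.2% around the 4445 bases of *Lin28b* and 14.4% around the 2775 bases of *Lin28a*. The letters TACCTCA without a C before them, a second form of the site that shares 6 letters with the first, occurred 3 times in *Hmga2* and once each in *Lin28b*, *Igf2bp1*, *Igf2bp2* and *Igf2*. Of all genes, 7.23% held this form. A match describes the letters and not binding.

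The matches of *Hmga2*, which held the most matches of both forms among the 10 genes, and of *Lin28a* are shown in full, with 1 match of each further gene, as DNA letters 5′ to 3′ with the complement of the seed in capitals.
Hmga2 match 1: ccgacattcaatttCTACCTCagcatca
Hmga2 match 2: cccactcctcaataCTACCTCtgaatgc
Hmga2 match 3: tgatttgcaaggaaCTACCTCcacactt
Hmga2 match 4: atcaaaacacactaCTACCTCttaagtc
Lin28a match 1: cacagcctgttgaaCTACCTCatttttg
Lin28a match 2: agatcgccacaaacCTACCTCactgtgt
Lin28b match 1: cccgggcgggaagtCTACCTCatgcaag
Igf2bp1 match 1: ctgtgcgaagtaaaCTACCTCaaggtgt
Igf2bp2 match 1: cacacaaataaaagCTACCTCaggtgtt
Igf2bp3 match 1: gcatttttactcaaCTACCTCaggtatt
Hmga1 match 1: cctctgttcacaaaCTACCTCtggacgg
On GRCm38 the capitals lie in 3′ UTR exons. Those of *Hmga2* are at chr10:120364225-120364231, chr10:120362988-120362994, chr10:120362550-120362556 and chr10:120361692-120361698 on the minus strand, and those of *Lin28a* at chr4:134005190-134005196 and chr4:134004552-134004558, also on the minus strand. The matches of *Lin28b*, *Igf2bp1*, *Igf2bp2* and *Igf2bp3* are at chr10:45381023-45381029, chr11:95961779-95961785, chr16:22059474-22059480 and chr6:49086788-49086794 on the minus strand, and that of *Hmga1* at chr17:27563292-27563298 on the plus strand. An A follows the capitals in the first match of *Hmga2*, *Lin28b* and *Igf2bp1*, in both of *Lin28a*, and in those of *Igf2bp2* and *Igf2bp3*. This form of site represses most strongly as a rule.

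Levels of the 10 genes ran from no reads to above 99.1% of the genes detected in a genotype (those with at least 1 read), and both knockouts differed from WT. In the libraries labelled *Atm-/-*, *Igf2*, *H19* and *Lin28b* came on from few or no reads and *Hmga1* rose 2.6-fold, while *Lin28a* and *Igf2bp2* fell. In *Sirt6-/-* no member rose: *Lin28a* fell to 0 reads, and all 3 *Igf2bp* and both *Hmga* genes fell by 1.24 to 1.71-fold. *Dis3l2* did not pass the test in any comparison. The test was the quasi-likelihood test of edgeR on counts normalised by the trimmed mean of M values (TMM), with p-values adjusted over all genes tested by the Benjamini-Hochberg method. The plot of RPKM by sample shows each of these levels.

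**Figure D1:**
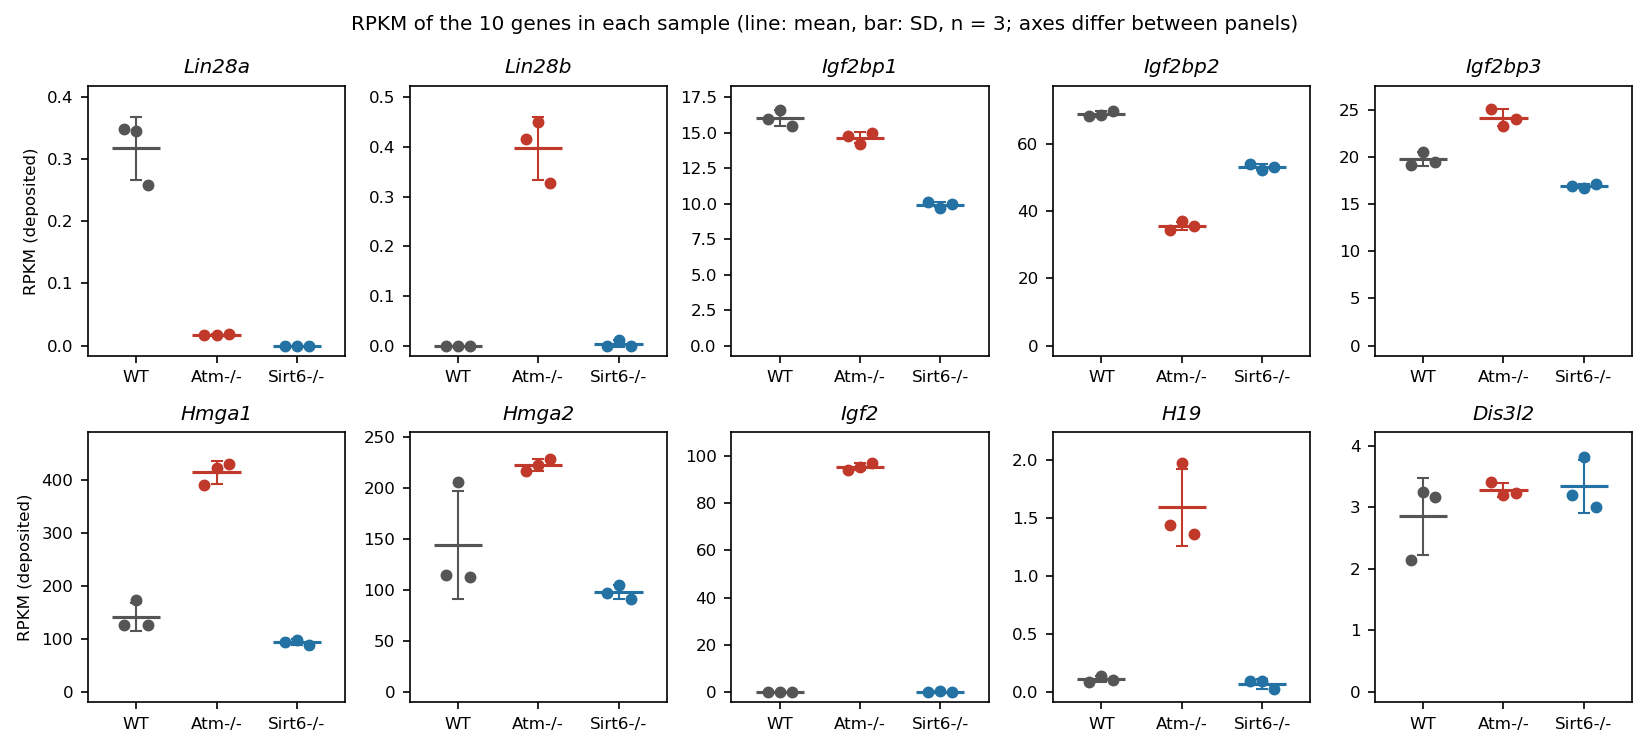
RPKM as deposited (vertical axes, from 0, differing between panels) of the 10 genes in the 3 samples of each genotype, with the mean as a line and the SD as a bar. *Igf2*, *H19* and *Lin28b* are high in the 3 libraries labelled *Atm-/-* alone, *Lin28a* is high in the 3 WT samples, and WT replicate 2 lies above the other WT samples in the panels of *Hmga1* and *Hmga2*.

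In counts, all 10 genes were tested in the libraries labelled *Atm-/-* against WT, and 6 were higher and 3 lower at an edgeR adjusted p under 0.05. Among all 13283 genes tested, 34.7% were higher and 33.6% lower. 6 of the 10 also differed at least 2-fold, against 22.5% of all genes. With library totals in place of TMM, the split of all genes moved from 4611 higher and 4469 lower to 6156 and 3326, since the median log2 fold change of all genes shifted by 0.164, while the members stayed at 6 higher and 3 lower. In *Sirt6-/-* against WT, 8 of 10 were tested, 0 were higher and 6 lower, where 39.2% and 37.4% of 13206 genes were higher and lower. The count of 0 was the same at an unadjusted p under 0.05 and by the DESeq2 Wald test. Only *Lin28a* differed at least 2-fold, against 29.3% of all genes. In *Sirt6-/-* against the libraries labelled *Atm-/-*, 9 were tested, 1 was higher and 7 lower, with 37.8% and 38.0% of 13460 genes called in these directions and 5 of the members past 2-fold, against 25.5%. *Lin28a*, *Lin28b* and *H19* had to differ once they passed the filter, so these counts are a description.

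**Figure D2:**
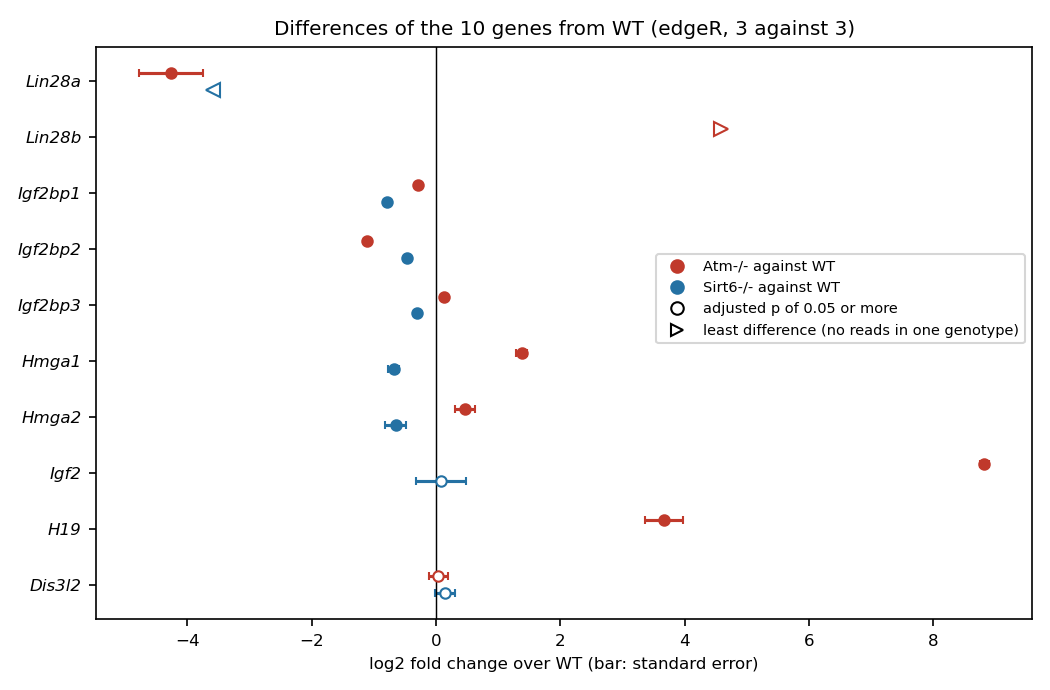
Log2 fold change over WT (horizontal axis) with its standard error for the 10 genes, in the libraries labelled *Atm-/-* (red) and *Sirt6-/-* (blue). Triangles mark the least difference where 1 genotype had no reads, as for *Lin28a* in *Sirt6-/-* and *Lin28b* in the libraries labelled *Atm-/-*. *Lin28b* and *H19* in *Sirt6-/-* had too few reads and have no point, and *Igf2* reaches 8.82 in the libraries labelled *Atm-/-*.

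*Lin28a* (ENSMUSG00000050966, chr4:134003330-134018841, minus strand) was a low-level transcript of the WT cells. It had 41, 40 and 30 reads in WT, or 0.318 ± 0.0509 RPKM (mean ± SD, n = 3), which exceeded 27.1% of the 16045 genes detected there. It had 2 reads in each of the 3 libraries labelled *Atm-/-* and 0 in each *Sirt6-/-* sample. All 3 WT samples therefore lay above all 6 knockout samples. The level was 18.2 times lower in the libraries labelled *Atm-/-* than in WT (95% exact binomial interval of the reads 8.08 to 50.5). In *Sirt6-/-* it was at least 12.0-fold lower than in WT, against 3 reads in each *Sirt6-/-* library. Between the knockouts *Lin28a* had too few reads for the fit, and an exact two-sided permutation test gave p = 0.1, the smallest that 3 against 3 samples allow.

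*Lin28b* (ENSMUSG00000063804, chr10:45376620-45486395, minus strand), the paralogue of *Lin28a*, showed another pattern. It had 0 reads in each WT sample, and 0, 2 and 0 in *Sirt6-/-*. The libraries labelled *Atm-/-* had 74, 81 and 57 reads, or 0.397 ± 0.0635 RPKM (n = 3). These 3 samples lay apart from the other 6, at a level that exceeded 27.3% of the 16659 genes detected in them. *Lin28b* was at least 24.0-fold higher there than in WT, with 3 reads set as the limit in each WT library. It was 105 times higher than in *Sirt6-/-* (95% exact interval 28.8 to 875). The *Sirt6-/-* side of that ratio rests on the 2 reads of replicate 2, and without this library only a bound was left, at least 23.5-fold against 3 reads in each library. *Sirt6-/-* and WT could not be told apart at this depth (exact permutation p = 1.0). *Lin28a* passed the filter on low counts only through WT, and *Lin28b* only through the libraries labelled *Atm-/-*. Both had to differ once they passed it, so no test of these differences is given. Per length, the highest *Lin28a* level, in WT, and the highest *Lin28b* level, in the libraries labelled *Atm-/-*, were both under 0.5 RPKM in each sample.

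*Dis3l2* (ENSMUSG00000053333, chr1:86703808-87050095, plus strand), the exonuclease that acts on the Lin28-marked precursor, had 227, 338 and 331 reads in WT, 352, 334 and 326 in the libraries labelled *Atm-/-* and 324, 386 and 314 in *Sirt6-/-*. The groups overlapped, with WT replicate 1 the lowest sample. The log2 fold change was 0.04 (SE 0.15, edgeR adjusted p = 0.838) in the libraries labelled *Atm-/-* and 0.14 (SE 0.16, adjusted p = 0.44) in *Sirt6-/-*, each against WT.

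The 3 *Igf2bp* genes were expressed at 9.72 to 69.9 RPKM in every sample. *Igf2bp2* (ENSMUSG00000033581, chr16:22059009-22163299, minus strand), the member that persists in adult tissue, was the most abundant of them in all 9 samples. It had 68.4, 68.9 and 69.9 RPKM in WT, 34.5, 37.0 and 35.6 in the libraries labelled *Atm-/-*, and 54.2, 52.4 and 53.2 in *Sirt6-/-*. The 3 genotypes did not overlap, and WT was the highest. *Igf2bp2* was 2.16-fold lower in the libraries labelled *Atm-/-* than in WT (log2 fold change -1.11, SE 0.04, edgeR adjusted p = 1.91e-11). In *Sirt6-/-* it fell 1.38-fold (log2 fold change -0.46, SE 0.04, adjusted p = 1.43e-07), and *Sirt6-/-* exceeded the libraries labelled *Atm-/-* 1.56-fold (adjusted p = 1.56e-11).

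*Igf2bp1* (ENSMUSG00000013415, chr11:95957163-96005940, minus strand) is a fetal member of the family, with 4 let-7 matches. It had 16.0, 16.6 and 15.5 RPKM in WT, 14.8, 14.2 and 15 in the libraries labelled *Atm-/-* and 10.1, 9.72 and 10.0 in *Sirt6-/-*. *Sirt6-/-* was the lowest group by a wide margin, and the other two lay close together without overlap. The fall was 1.71-fold in *Sirt6-/-* (log2 fold change -0.78, SE 0.05, edgeR adjusted p = 2.04e-09) and 1.22-fold in the libraries labelled *Atm-/-* (log2 fold change -0.29, SE 0.05, adjusted p = 9.7e-05). The knockouts differed from each other by 1.41-fold (adjusted p = 3.88e-09).

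*Igf2bp3* (ENSMUSG00000029814, chr6:49085223-49214957, minus strand), the member most tied to tumours, had 19.2, 20.6 and 19.5 RPKM in WT, 25.1, 23.3 and 24.1 in the libraries labelled *Atm-/-* and 16.9, 16.7 and 17.2 in *Sirt6-/-*. The order of the genotypes differed from that of the other two genes, with WT in the middle. It fell 1.24-fold in *Sirt6-/-* (log2 fold change -0.31, SE 0.05, edgeR adjusted p = 9.39e-05). In the libraries labelled *Atm-/-* it was 1.09-fold higher than WT, a call that stood at the threshold (log2 fold change 0.13, SE 0.05, adjusted p = 0.0447). That call was lost without WT replicate 1 (adjusted p = 0.128), without WT replicate 3 (0.109), without the library labelled *Atm-/-* replicate 1 (0.128) or replicate 3 (0.077), with no filter (0.0636), by edgeR's exact test (0.0529) and by the DESeq2 Wald test (0.0501). With library totals in place of TMM the call was kept, at a log2 fold change of 0.29 (edgeR adjusted p = 0.000179). The size of this difference therefore depended on the scaling.

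The makeup of the family differed as well. Of the summed RPKM of the 3 genes, *Igf2bp2* made up 65.9% ± 0.859 in WT, 66.5% ± 0.290 in *Sirt6-/-* and 47.9% ± 1.66 in the libraries labelled *Atm-/-* (mean ± SD, n = 3). *Igf2bp3* took 18.8% ± 0.494, 21.1% ± 0.294 and 32.4% ± 1.24 in the same order. The summed level was 105 ± 1.25 RPKM in WT, 80.1 ± 1.21 in *Sirt6-/-* and 74.5 ± 0.153 in the libraries labelled *Atm-/-*. No sample labelled *Atm-/-* overlapped with the other genotypes in either share.

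**Figure D3:**
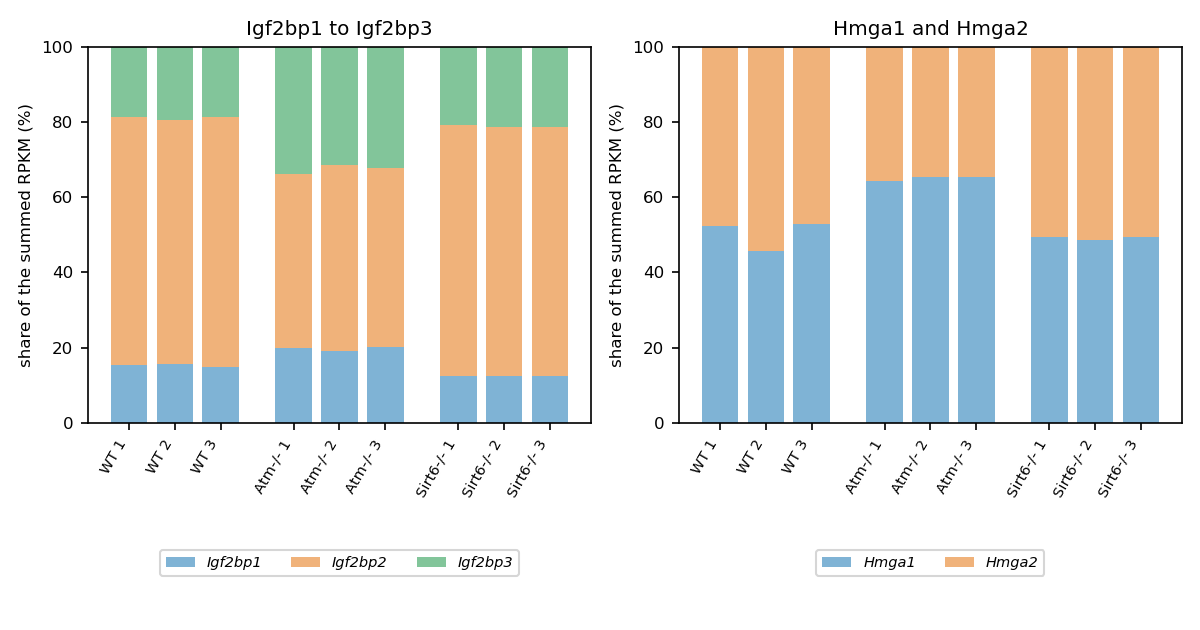
Share of each gene (percent, vertical axis) in the summed RPKM of *Igf2bp1*, *Igf2bp2* and *Igf2bp3* (left) and of *Hmga1* and *Hmga2* (right), with 1 bar per sample. The *Igf2bp2* part is 46.4% to 49.7% in the libraries labelled *Atm-/-* and 64.9% to 66.7% in the other samples, and the *Hmga1* part is 64.3% to 65.5% against 45.6% to 52.9%.

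The *Hmga* genes were among the strongly expressed genes of these cells, with *Hmga1* in WT above 96.9% of the genes detected. *Hmga1* (ENSMUSG00000046711, chr17:27556497-27563674, plus strand) had 127, 173 and 127 RPKM in WT, 391, 424 and 431 in the libraries labelled *Atm-/-* and 95.1, 99.1 and 89.4 in *Sirt6-/-*. The 3 groups did not overlap. *Hmga1* rose 2.6-fold in the libraries labelled *Atm-/-* (log2 fold change 1.38, SE 0.09, edgeR adjusted p = 7.53e-09) and fell 1.60-fold in *Sirt6-/-* (log2 fold change -0.68, SE 0.09, adjusted p = 1.27e-05). Without WT replicate 2, the highest WT sample, the log2 fold changes were 1.55 and -0.53 (adjusted p = 1.53e-18 and 1.97e-09). The knockouts differed 4.21-fold (adjusted p = 9.89e-20).

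*Hmga2* (ENSMUSG00000056758, chr10:120361275-120476469, minus strand) had 115, 206 and 113 RPKM in WT, 217, 223 and 229 in the libraries labelled *Atm-/-* and 97.2, 105 and 91.3 in *Sirt6-/-*. WT replicate 2 lay close to the libraries labelled *Atm-/-*, and the other WT samples lay close to *Sirt6-/-*. In normalised CPM, WT and the libraries labelled *Atm-/-* overlapped. The log2 fold change of the latter was 0.46 (SE 0.16, edgeR adjusted p = 0.0199), or 0.80 without WT replicate 2 (adjusted p = 3.61e-14), and the DESeq2 Wald test did not call it (adjusted p = 0.183). It also missed the threshold without WT replicate 1 or 3 (adjusted p = 0.0853 and 0.107) and without the library labelled *Atm-/-* replicate 1 or 3 (0.0503 and 0.0551). In *Sirt6-/-* the log2 fold change was -0.65 (SE 0.17, adjusted p = 0.00243), or -0.32 without WT replicate 2 (adjusted p = 5.31e-06). The comparison without WT showed 2.18-fold less *Hmga2* in *Sirt6-/-* than in the libraries labelled *Atm-/-* (log2 fold change -1.13, SE 0.04, adjusted p = 1.87e-15). *Hmga2-ps1*, a pseudogene that was singled out after its values were seen, went the other way, with 444, 448 and 503 reads in *Sirt6-/-*, 114, 88 and 88 in WT and 48, 37 and 32 in the libraries labelled *Atm-/-*.

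The pair shifted in its makeup too: *Hmga1* made up 50.3% ± 4.08 of their summed RPKM in WT, 49.2% ± 0.525 in *Sirt6-/-* and 65.0% ± 0.650 in the libraries labelled *Atm-/-*. The summed level was 287 ± 79.7, 192 ± 11.7 and 638 ± 27.1 RPKM in that order. Without WT replicate 2, the WT mean of the share was 52.7% and that of the summed level 241 RPKM (n = 2).

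*Igf2* (ENSMUSG00000048583, chr7:142650766-142666816, minus strand) went from a trace level to one of the strongly expressed genes. It had 26, 27 and 23 reads in WT and 19, 41 and 23 in *Sirt6-/-*. The libraries labelled *Atm-/-* had 12520, 12827 and 12652 reads, or 95.4 ± 1.5 RPKM (n = 3), which exceeded 95% of the genes detected. The 3 libraries were close to each other and far from the other 6. The edgeR log2 fold change over WT was 8.82 (SE 0.08, adjusted p = 4.63e-18). The summed reads per total were 509 times those of WT (95% exact interval 407 to 647, counting error of independent reads only). Against *Sirt6-/-* they were 455 times higher (interval 367 to 571, adjusted p = 1.93e-24). WT and *Sirt6-/-* overlapped (log2 fold change 0.08, SE 0.40, adjusted p = 0.87).

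*H19* (ENSMUSG00000000031, chr7:142575529-142578143, minus strand), which lies 72622 bases from *Igf2*, had 8, 12 and 9 reads in WT, 8, 8 and 2 in *Sirt6-/-* and 124, 172 and 115 in the libraries labelled *Atm-/-*. The libraries labelled *Atm-/-* again lay apart, at 14.4 times the reads of WT (95% exact interval 9.90 to 21.8). Their *H19* level of 1.59 ± 0.333 RPKM was far below their *Igf2* level per length. *H19* passed the filter only through these libraries and had to differ, so no test of this difference is given. Between *Sirt6-/-* and WT it was too low for the fit, and the difference was not detectable (exact permutation p = 0.3).

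Other genes listed for the domain and its regulators were mixed. Of its neighbours, *Mrpl23* was not called in the libraries labelled *Atm-/-* or in *Sirt6-/-* against WT (log2 fold change 0.05 and 0.16, edgeR adjusted p = 0.772 and 0.238). *Lsp1* was not called in the former (-0.27, adjusted p = 0.0695) and fell in the latter (-0.26, adjusted p = 0.044). *Ins2* and *Nctc1* were below the filter. *Plagl1*, *Dnmt3a* and *Zfp57*, given below, are regulators. *Igf2os*, transcribed antisense to *Igf2* and overlapping it, had 315, 293 and 317 reads in the libraries labelled *Atm-/-*, 2, 1 and 0 in WT and 0 in each *Sirt6-/-* sample. Its ratio to WT was 314 (95% exact interval 107 to 1530), and it passed the filter only through the libraries labelled *Atm-/-*, so no test is given. Since the sources used here do not say that strand was counted, reads of *Igf2* and *Igf2os* cannot be told apart. *Plagl1*, a zinc finger factor of the imprinted gene network, rose in both comparisons with WT, to 4.96 ± 1.30 CPM in the libraries labelled *Atm-/-* and 21.1 ± 1.14 in *Sirt6-/-* from 0.997 ± 0.553 (edgeR adjusted p = 3.25e-05 and 3.24e-10). *Dnmt3a*, a de novo DNA methyltransferase, fell to 30.6 ± 2.05 and 30.3 ± 2.16 CPM from 81.7 ± 4.57 (adjusted p = 1.59e-10 and 9.83e-11). *Zfp57*, which maintains methylation at imprinted loci, fell to 60.5 ± 0.238 and 58.0 ± 3.91 CPM from 83.8 ± 6.85 (adjusted p = 1e-05 and 7.54e-06).

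Of 13 genes listed for the domain and its regulators, 11 were tested in the libraries labelled *Atm-/-* against WT, of which 4 rose and 2 fell. In *Sirt6-/-*, 10 were tested, 1 rose and 5 fell. The share called in the libraries labelled *Atm-/-* was 54.5%, below the 68.4% of all genes. In *Sirt6-/-* the share called was also below that of all genes, which was 76.6%. The median log2 fold changes were 0.04 and -0.08, beside 0.02 for all genes tested in each comparison.

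The let-7 genes themselves could not be read. The 14 precursor genes listed (let-7, *Mir98*, *Mir202* and *Mir675*, which is encoded in *H19*) had 0 reads in all 9 samples, in libraries made from poly(A)-selected, fragmented mRNA. *Mirlet7bhg*, the host transcript of let-7b, which was singled out after its values were seen, had 27, 28 and 22 reads in WT, 60, 59 and 82 in the libraries labelled *Atm-/-* and 91, 76 and 54 in *Sirt6-/-*. Mature let-7 was not measured.

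Genes for the proteins that process let-7 and other small RNAs were read from a second list. Of 23 genes listed, 22 were tested in the libraries labelled *Atm-/-* against WT, and 12 rose, 6 fell and 4 did not pass, with a median log2 fold change of 0.15 beside 0.02 for all genes. The share called was 81.8%, against 68.4% of all genes. With library totals 15 rose and 3 fell. With TMM, none of these 18 changes reached 2-fold. *Tnrc6b*, which joins Argonaute to the deadenylases, rose to 80.0 ± 2.17 from 51.8 ± 4.28 CPM (adjusted p = 9.14e-07). *Zcchc6* (Tut7), a uridylyl transferase that Lin28 recruits, rose 1.5-fold to 71.3 ± 3.04 CPM (adjusted p = 4.69e-07). *Zcchc11* (Tut4), another uridylyl transferase of the list, went the other way and fell 1.28-fold to 35.8 ± 0.786 CPM (adjusted p = 0.000285). *Dicer1*, which cuts the precursor, fell 1.45-fold to 71.2 ± 6.34 CPM (adjusted p = 3.26e-06), and *Adar*, an RNA-editing enzyme, fell 1.36-fold (adjusted p = 3.26e-05).

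In *Sirt6-/-*, 23 were tested, and 7 rose, 12 fell and 4 did not pass, with a median log2 fold change of -0.20 beside 0.02. The share called was 82.6%, against 76.6% of all genes. With library totals in place of TMM, 10 rose and 9 fell, so the majority direction depended on the scaling. *Ago4*, an Argonaute protein, went from 0, 0 and 2 reads in WT to 112, 85 and 108 in *Sirt6-/-*, a ratio of 156 (95% exact interval 42.9 to 1300). It passed the filter only through *Sirt6-/-* and had to differ, so no test is given. *Tnrc6b* rose 2.44-fold to 126 ± 2.58 CPM (edgeR adjusted p = 7.78e-11). *Xpo5*, which exports precursors from the nucleus, fell 1.62-fold to 120 ± 5.93 CPM (adjusted p = 8.09e-09), and *Khsrp*, which promotes let-7 processing, fell 1.34-fold (adjusted p = 1.58e-06). *Ago4* and *Tnrc6b* were the 2 genes of the list past 2-fold, and its median was the same with *Ago4* set to the bound of 3 reads per library. Between *Sirt6-/-* and the libraries labelled *Atm-/-*, 7 were higher, 9 lower and 7 not called (69.6% called, against 75.8% of all genes).

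Known let-7 targets other than the members were read from a list of 31 genes, of which 23 held a CTACCTC match in their 3′ UTR. In the libraries labelled *Atm-/-*, 28 were tested, 9 rose, 14 fell and 5 did not pass, with a median log2 fold change of -0.16 beside 0.02 for all genes. The share called was 82.1%, against 68.4% of all genes. With library totals 10 rose and 12 fell. *Mycn*, an oncofetal transcription factor, fell from 103 ± 16.1 to 3.24 ± 0.679 CPM (log2 fold change -4.99, SE 0.14, edgeR adjusted p = 4.48e-13). *Igdcc4*, a membrane protein of the immunoglobulin family, fell 5.13-fold to 9.22 ± 0.549 CPM (adjusted p = 1.97e-11). *Prtg*, a related protein of the embryo, rose 4.04-fold to 6.05 ± 0.345 CPM (adjusted p = 2.38e-07).

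In *Sirt6-/-*, 28 targets were tested, 4 rose, 17 fell and 7 did not pass, with a median of -0.37. The share called, 75.0%, was near the 76.6% of all genes. With library totals 8 rose and 15 fell. *Mycn* fell to 4.80 ± 1.30 CPM (log2 fold change -4.42, SE 0.16, adjusted p = 2.19e-12) and *Igdcc4* to 3.78 ± 0.476 (12.4-fold, adjusted p = 5.99e-13). *Insr*, the insulin receptor, rose 2.46-fold (adjusted p = 6.08e-10) and *Prtg* 1.66-fold (adjusted p = 0.0182). Both comparisons use the same WT samples, so their likeness is not an independent observation. In *Sirt6-/-* against the libraries labelled *Atm-/-*, 8 of 28 targets were higher, 15 lower and 5 not called, with a median of -0.21. The share called was 82.1%, against 75.8% of all genes. Leaving out 1 sample at a time, the targets called numbered 21 to 23 and 19 to 23 in the comparisons with WT.

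**Figure D4:**
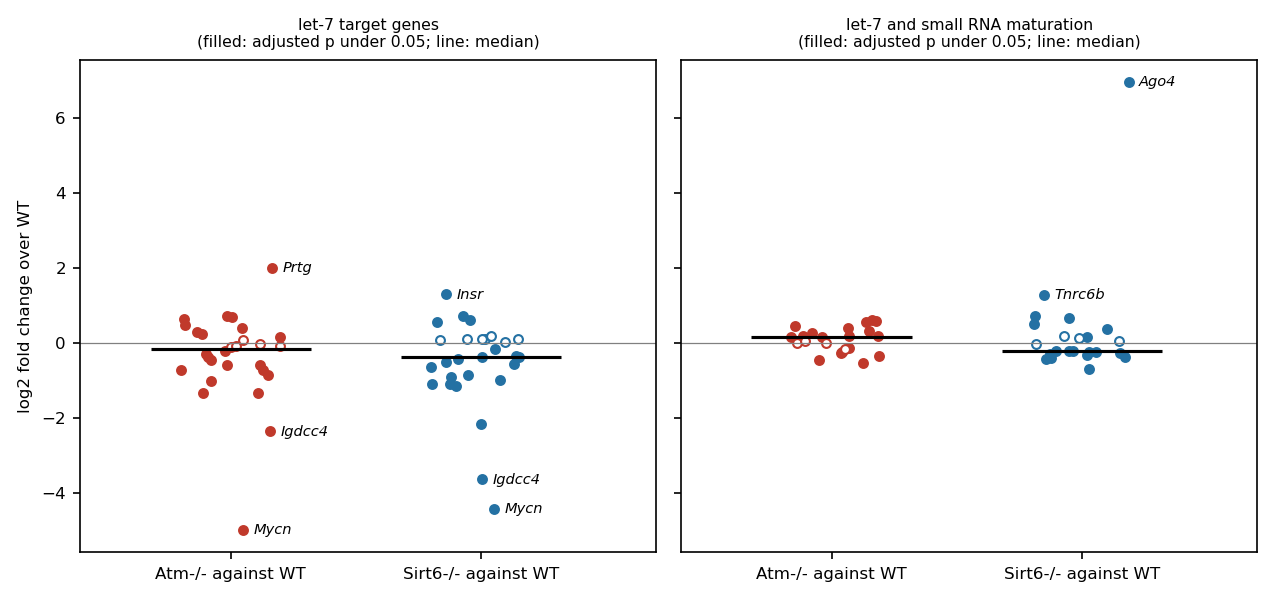
Log2 fold change over WT (vertical axis) of the let-7 target genes (left) and the let-7 and small RNA maturation genes (right), with 1 point per gene tested, filled at an adjusted p under 0.05, and the median as a line. The medians are -0.16 and -0.37 for the targets and 0.15 and -0.20 for the maturation genes, and the place of *Ago4*, which had 2 reads in WT, depends on the prior count.

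The genes that receive and carry the Igf2 signal were read from a list of 10, which shares *Igf1r* and *Insr* with the target list. In the libraries labelled *Atm-/-*, where *Igf2* was high, 9 were tested, 1 rose, 4 fell and 4 did not pass, and in *Sirt6-/-* 3 rose, 5 fell and 1 did not pass. The share called was 55.6% and 88.9%, against 68.4% and 76.6% of all genes. *Igfbp3*, the main carrier of insulin-like growth factors in serum, was the strongest change of the list in the libraries labelled *Atm-/-*, from 1270 ± 204 to 26.4 ± 1.09 CPM (log2 fold change -5.59, SE 0.11, adjusted p = 9.86e-15), and it fell further in *Sirt6-/-*, to 1.23 ± 0.270 (log2 fold change -10.00, SE 0.15, adjusted p = 3.27e-16). *Igf1*, the postnatal ligand, fell from 33.9 ± 7.16 to 4.30 ± 0.710 and 1.92 ± 0.260 CPM (adjusted p = 6.27e-10 and 1.85e-11). *Insr* rose 1.41-fold in the libraries labelled *Atm-/-* (adjusted p = 0.000108). *Igfbp2*, a binding protein of fetal tissues, rose from 2.03 ± 0.180 to 811 ± 28.3 CPM in *Sirt6-/-* (log2 fold change 8.64, SE 0.07, adjusted p = 2.94e-18). The median log2 fold change of the list was -0.07 in the libraries labelled *Atm-/-* and -0.49 in *Sirt6-/-*, beside 0.02 for all genes.

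Among the 10 genes, *Lin28a* had the largest change in *Sirt6-/-*, and the genes most like it over the 9 samples were *Map4k4*, *Tpm1*, *Limk2*, *Meis2* and *Hmgn1*, with Pearson r of 0.9966, 0.9961, 0.9959, 0.9949 and 0.9945 of log2 CPM among 9492 genes. All 5 were high in WT and lower in both knockouts, such as *Map4k4*, itself on the let-7 target list, at 402 ± 22 CPM in WT, 201 ± 4.82 in the libraries labelled *Atm-/-* and 187 ± 7.40 in *Sirt6-/-*. The points are 3 clusters, 1 per genotype, and share libraries, so r describes the genotype means. A value of 0.5 CPM was added before the log, which draws the low *Lin28a* values of both knockouts close together. The genes compared had a mean log2 CPM of at least 3, which *Lin28a* itself did not reach.

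Markers of other cell types moved beside some members. The summed level of 9 pluripotent and germ cell markers was 1.53 to 2.09 RPKM in WT, 15.9 to 19.1 in the libraries labelled *Atm-/-* and 0.746 to 0.826 in *Sirt6-/-*, highest in the libraries labelled *Atm-/-*, as were *Lin28b*, *Igf2* and *H19*. *Sox2* and *Ddx4*, singled out after their values were seen, had 546 to 783 and 706 to 853 reads in the libraries labelled *Atm-/-*, while the defining genes *Pou5f1*, *Zfp42*, *Dppa4* and *Dazl* had 0 reads in all 9 samples. *Nanog*, another pluripotency factor, went the other way, at 0.929 ± 0.314 CPM in the libraries labelled *Atm-/-* against 2.01 ± 0.647 in WT (log2 fold change -1.12, SE 0.35, edgeR adjusted p = 0.0115). The other members of the list, *Utf1* and *Dppa5a*, stayed below the filter. The 6 epithelial markers summed to 9.87 to 12.0, 26.9 to 30.8 and 8.20 to 10.2 RPKM in WT, the libraries labelled *Atm-/-* and *Sirt6-/-*, and the 6 neural markers to 1.88 to 2.16, 51.0 to 51.7 and 56.9 to 61.5, with *Sox1* and *Dcx* at 0 throughout. Of 5 epithelial markers tested in the libraries labelled *Atm-/-* against WT, 2 rose. These were *Krt18*, from 7.21 ± 1.07 to 28.2 ± 2.70 CPM, and *Cdh1*, from 2.30 ± 0.250 to 4.13 ± 0.223 CPM. *Epcam*, *Krt8* and *Esrp1* were not called, and *Cldn6* was below the filter. The endothelial, haematopoietic and muscle lists stayed under 3 RPKM in each sample. In bulk RNA, more cells of a type and more RNA per cell cannot be told apart, and the part of these markers in the results was not tested.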

How the data were processed

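Poly(A)-selected RNA of 9 MEF samples, 3 per genotype by their labels, was sequenced by the study. For each sample the authors deposited a table with a raw read count and an RPKM value per gene. The submitters' processing notes name the build mm10, and the aligner, counter, annotation and strand setting are not given in the sources used here. Nothing in the labels says that the samples of a genotype were separate cultures, so p-values measure only the spread between these samples, which may be technical.

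Counts were tested for each pair of genotypes, on the 6 samples of the pair, with the quasi-likelihood test of edgeR 4.0.16 (R 4.3.3, limma 3.58.1) after filterByExpr and TMM normalisation, with a prior count of 0.125 and Benjamini-Hochberg adjustment over all genes tested, at a threshold of 0.05. A gene below the filter was compared by an exact two-sided permutation test of CPM, which cannot go below 0.1 with 3 against 3 samples. The deposited RPKM values were used only for levels and shares. With 32187040 to 33837949 reads per sample, 3 reads correspond to 0.0887 to 0.0932 CPM. Limits and 95% exact binomial intervals cover only the counting error of independent reads. Each sample had more genes at 2 reads (595 to 675) than at 1 read (289 to 355), so reads may not be independent. The intervals may then be too narrow. The code was tested on simulated data.

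Gene positions and 3′ UTRs came from GENCODE M21 on GRCm38, in which 95.2% of the listed symbols were found, and microRNA sequences from RefSeq (GRCm38.p6). The members and gene lists were chosen with earlier results of these data known. Of each list, up to 2 rising and 2 falling genes per comparison with WT were named, those with the largest change among genes past the threshold with at least 1 CPM in a genotype, together with the 5 genes most like the member that changed most in *Sirt6-/-*. *Mrpl23*, *Lsp1*, *Ins2*, *Nctc1* and *Zcchc11* were named outside this rule, after their values were seen. Alternatives were DESeq2 size factors, library totals, other filters, 1 fit of all 9 samples, a replicate block, each sample left out, the DESeq2 1.42.0 Wald test, the exact test of edgeR, a required 2-fold change and a prior count of 2. The *Hmga* shares without WT replicate 2 and the *Lin28b* bound without *Sirt6-/-* replicate 2 were added after seeing the data. Some results that the naming rule or the alternatives covered are not reported here.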

Additional observations from a re-analysis of the deposited data

How the results depend on the processing

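Of 402 fold changes of the 10 genes under the alternatives, 385 kept their direction and their side of the threshold, 13 were weaker, 0 stronger and 4 reversed. Part of the 385 was fixed in advance. *Lin28a*, *Lin28b* and *H19* had to differ once they passed the filter, and a prior count of 2 leaves the adjusted p unchanged. The tally is therefore a description. The 13 were *Igf2bp3* and *Hmga2* in the libraries labelled *Atm-/-* against WT, 12 given with those genes and 1, the replicate block, below, and the cause was not tested. The 4 that reversed had missed the threshold with all samples. With 1 sample left out, *Dis3l2* ran from -0.13 (without WT replicate 1) to 0.14 in the libraries labelled *Atm-/-* against WT, from -0.04 (without WT replicate 1) to 0.23 in *Sirt6-/-* against WT, and from -0.02 (without *Sirt6-/-* replicate 2) to 0.15 between the knockouts. *Igf2* in *Sirt6-/-* against WT ran from -0.33 (without *Sirt6-/-* replicate 2) to 0.28. Of 180 counts of called genes, 169 stayed within 1.5 times. The 11 that moved did so where a 2-fold change was required as well, which by construction calls fewer. In the order *Atm-/-* against WT, *Sirt6-/-* against WT and *Sirt6-/-* against *Atm-/-*, that left 6, 7 and 3 let-7 targets, 0, 2 and 1 maturation genes, and 2983, 3872 and 3433 genes, with 1 and 5 members in the latter 2 comparisons.

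Leaving out 1 sample at a time gave 7 to 9, 6 to 6 and 8 to 8 members called in that order, and 8545 to 9240, 9651 to 10217 and 9896 to 10007 genes. Let-7 targets ran from 21 to 23, 19 to 23 and 20 to 24, and maturation genes from 15 to 17, 18 to 20 and 16 to 17. Same-numbered samples of different genotypes had correlations of their deviations from -0.0168 to 0.0885, and differently numbered samples from -0.112 to 0.0701. Such weak correlations do not settle whether the replicate numbers pair the samples. A replicate block in the fit gave 8, 6 and 8 members and 8833, 10041 and 10157 genes called, without *Igf2bp3* in the first comparison (adjusted p = 0.0762). Depth limits *Lin28a*, *Lin28b* and *H19*, whose fitted fold changes depend on the prior count where a genotype had few reads.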
